A study of Mus musculus with 9 samples.

Results

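The 7 mouse genes that encode inhibitors of cyclin-dependent kinases (CDKs) were followed through RNA sequencing of cultured oligodendrocyte progenitor cells (OPCs), proliferating cells that give rise to oligodendrocytes, the myelinating glia of the brain. They were taken by symbol as Cdkn1a, Cdkn1b, Cdkn1c, Cdkn2a, Cdkn2b, Cdkn2c and Cdkn2d. All 7 were found among the 56980 gene identifiers of the deposited count table, and all 7 passed the filter on low counts, which left 17001 genes for testing. The study held 9 libraries in 3 groups of 3. The first group, p53n, was a primary OPC line that lacks p53 (Trp53 -/-) and is labelled as the control. The second, BB-p53n DMSO, was p53-null OPCs expressing PDGF-BB, a ligand of the PDGF receptors, and given the solvent DMSO. The third, BB-p53n EZH2i, was the PDGF-BB cells after 48 hours with 5 µM tazemetostat, an inhibitor of the histone H3 methyltransferase EZH2. Every group lacked p53 and grew in SATO medium with 10 ng/mL PDGF-AA and forskolin. Only the PDGF-BB cells had received DMSO, so PDGF-BB and the solvent cannot be told apart in the first comparison. Neither the construct that supplies PDGF-BB nor the clonality of the lines is given in the sources used here. Whether replicate libraries stem from separate cultures is not stated, so the spread behind every p-value is that of these libraries and may be technical.

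CDK inhibitors act on the kinases that drive cells from G1 into S phase, where cyclin D with CDK4 or CDK6, and then cyclin E with CDK2, phosphorylate the retinoblastoma protein and release E2F transcription factors. The Cip/Kip family comprises p21 (Cdkn1a), p27 (Cdkn1b) and p57 (Cdkn1c), which bind cyclin and kinase together and block CDK2 complexes in particular. The INK4 family comprises p16 (Cdkn2a), p15 (Cdkn2b), p18 (Cdkn2c) and p19 (Cdkn2d), which bind CDK4 and CDK6 alone and keep cyclin D from them. In the OPC lineage p27 and p57 are known for their part in leaving the cell cycle before differentiation. Cdkn1a is the classic transcriptional target of p53. Cdkn2a also encodes, from an exon of its own, the p19Arf protein, which acts upstream of p53. Cdkn2a and Cdkn2b are a textbook target of Polycomb repression through EZH2, and Cdkn1c is imprinted, with expression mainly from the maternal allele.

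Sequence upstream of the start sites is shown for Cdkn1a and Cdkn2a. Cdkn1a was chosen because its window holds letters of a p53 element and the cells lack p53. Cdkn2a was chosen because it has separate starts that its single count merges. The windows hold the 250 bases before each RefSeq transcript start (GRCm38.p6), written 5′ to 3′ on the strand of the gene. RefSeq windows were found for 6 of the 7 genes (9 windows), and none for Cdkn1c. In the first window of Cdkn1a, chr17:29090729-29090978 on the plus strand, the capitals mark a pair of p53 half-site letters.
Cdkn1a, upstream start: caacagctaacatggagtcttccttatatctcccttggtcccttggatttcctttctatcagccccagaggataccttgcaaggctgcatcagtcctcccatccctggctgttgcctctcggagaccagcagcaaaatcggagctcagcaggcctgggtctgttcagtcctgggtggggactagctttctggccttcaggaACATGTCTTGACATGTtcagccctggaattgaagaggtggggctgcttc
In the first window of Cdkn2a, chr4:89294620-89294869 on the minus strand, the capitals mark an E2F motif, and this is the upstream start, which by textbook annotation serves p19Arf.
Cdkn2a, upstream start: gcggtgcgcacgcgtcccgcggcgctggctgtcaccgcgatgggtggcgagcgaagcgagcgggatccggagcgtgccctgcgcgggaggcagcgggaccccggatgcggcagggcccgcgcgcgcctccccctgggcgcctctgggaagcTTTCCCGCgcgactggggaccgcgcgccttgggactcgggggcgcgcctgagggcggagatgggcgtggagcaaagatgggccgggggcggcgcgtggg
The second window of Cdkn2a, chr4:89282193-89282442 on the minus strand, lies at the start that serves p16 and holds none of the motifs searched.
Cdkn2a, downstream start: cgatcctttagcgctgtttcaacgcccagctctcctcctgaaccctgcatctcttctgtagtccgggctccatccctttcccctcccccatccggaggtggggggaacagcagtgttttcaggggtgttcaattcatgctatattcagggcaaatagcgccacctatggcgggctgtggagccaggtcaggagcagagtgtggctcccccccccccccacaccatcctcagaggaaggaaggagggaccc
The p53 letters searched, on both strands, were ACATGT and again ACATGT, with 4 bases of any kind between. They were present in 4 of the 32851 RefSeq windows of this length (0.0122%), and the match in Cdkn1a begins 49 bases before the start. The letters fix every base outside the gap, so this share counts a single exact spelling and not p53 elements in general. It is the spelling that Cdkn1a holds, and Cdkn1a was chosen for holding it, so neither the match nor its rarity is a result. The other Cdkn1a start, 2790 bases downstream, had no such match. The E2F letters searched on both strands were TTTCCCGC, TTTCGCGC, TTTGCCGC and TTTGGCGC, present in 1.86% of all windows and, among the CDK inhibitor windows, in the upstream Cdkn2a window alone, 99 bases before the start. The Cdkn2a starts lie 12427 bases apart and differ in base composition, with 78.4% GC and 40 CpG dinucleotides in the upstream window against 60% GC and 7 CpG in the downstream one. The median over all windows was 52.4% GC and 6 CpG. A match is a description of the letters and not a bound site.

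In the deposited coordinates (GRCm39) Cdkn1a (ENSMUSG00000023067) lies at chr17:29309950-29319701, Cdkn1b (ENSMUSG00000003031) at chr6:134897364-134902476 and Cdkn1c (ENSMUSG00000037664) at chr7:143012076-143014787. Cdkn2a (ENSMUSG00000044303, chr4:89192708-89212890) and Cdkn2b (ENSMUSG00000073802, chr4:89224536-89229276) are neighbours. Cdkn2c (ENSMUSG00000028551, chr4:109518073-109524386) lies farther along the same chromosome, and Cdkn2d (ENSMUSG00000096472) lies at chr9:21199706-21202703. Counts were made over the exons of each gene without regard to strand, so transcripts of Cdkn2a from its separate starts were not distinguished. Annotated genes on the opposite strand share 30.7% of the exon bases of Cdkn1c, 12.7% of those of Cdkn2c and 7.68% of those of Cdkn1a. The header records no option to count fragments in such shared bases, so the levels of these 3 genes rest on the rest of their exons. The opposite-strand genes themselves received 0, 45 and 19 counts over the 9 libraries.

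Total counts per library ran from 19471768 to 34557109, so that 3 counts corresponded to between 0.0868 and 0.154 CPM, the count scaled to a common library size. Trp53 still received counts, 195, 200 and 165 in p53n, then 462, 406 and 483 with PDGF-BB and DMSO, and 372, 244 and 320 with tazemetostat. Which part of Trp53 is altered is not given in the sources used here, and a count per gene does not show which exons were read. The check says nothing about p53 protein. The mean level of Ezh2 was 113 ± 3.24 CPM for p53n, 172 ± 1.64 with PDGF-BB and DMSO, and 112 ± 4.57 with tazemetostat (SD, n = 3 in each group here and throughout). Its lower level with tazemetostat depends on the GC and length trend described below. The log2 fold change against DMSO was -0.62 as fitted and 0.13 with the trend removed. Against p53n it was -0.01 and 0.69. Pdgfb received 0 to 1, 4 to 8 and 3 to 6 counts per library in p53n, BB-p53n DMSO and BB-p53n EZH2i. Whether RNA of the PDGF-BB construct would be counted there is not known, so these counts are no check of PDGF-BB expression. All 7 OPC markers had a mean above 1 CPM in every group, with sums from 7537 to 8130 CPM for p53n, from 6000 to 6087 with PDGF-BB and DMSO and from 4623 to 4893 with tazemetostat. Single OPC markers moved apart under these sums. Sox10, a transcription factor of the whole oligodendrocyte lineage, was at only 2.21 ± 0.29 CPM in p53n against 299.5 ± 16.4 and 459 ± 9.6 in the PDGF-BB groups, and Gpr17, a receptor of committed precursors, went from 1904 ± 86.3 to 132 ± 10.9 and 57.8 ± 6.54 CPM, so p53n and the PDGF-BB lines were not alike in these markers. Summed oligodendrocyte markers (4 of 7 above 1 CPM) ran from 729.5 to 777 CPM, 225 to 244 and 348 to 368. Summed astrocyte markers, of which 7, 4 and 3 of 7 were above 1 CPM and Aqp4 had no count in BB-p53n EZH2i, ran from 1533 to 1700, 1055 to 1077 and 1094 to 1237. Neuron markers, 5 of 7 above 1 CPM in every group, summed to 105 to 124, 96.4 to 99.8 and 117 to 128 CPM. The microglial, mural and endothelial lists summed to no more than 2.87, 3.29 and 14.2 CPM in any library, with C1qa at 0 in every library. Xist ranged from 2777 to 3101 CPM for p53n, from 46.2 to 65.0 with PDGF-BB and DMSO and from 2.82 to 17.4 with tazemetostat, and 4 genes of the Y chromosome summed to 1.37 to 2.36, 143 to 184 and 26.4 to 50.3 CPM. The p53n and PDGF-BB lines therefore differ in these chromosomes too, which cannot be told apart from PDGF-BB. The DMSO and tazemetostat libraries of the PDGF-BB cells did not overlap in Xist or the summed Y genes either. That difference cannot be told apart from the inhibitor. Mitochondrial genes took 4.46% to 5.76%, 2.44% to 2.62% and 1.34% to 1.54% of the counts. The part of these differences in the results was not tested. In bulk RNA fewer cells of a type and less RNA per cell cannot be told apart.

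Cip/Kip genes made up most of the CDK inhibitor RNA in p53n, and INK4 genes most of it in both PDGF-BB groups, also with the GC and length trend described below removed. On a scale per exon length (RPKM, TMM-scaled CPM per kilobase of exon), the 7 genes summed to 113 ± 2.88 for p53n, 159 ± 3.71 with PDGF-BB and DMSO and 202 ± 16.8 with tazemetostat. The 3 Cip/Kip genes held 58.4% ± 0.69 of that sum for p53n, 24.0% ± 0.70 with PDGF-BB and DMSO and 18.8% ± 0.68 with tazemetostat, and the 4 INK4 genes held 41.6%, 76.0% and 81.2%. The Cip/Kip sum itself was 66.2 ± 2.41, 38.2 ± 0.29 and 38.0 ± 4.37 RPKM, while the INK4 sum was 47.1 ± 0.63, 121 ± 3.91 and 164 ± 12.5 RPKM. Removal of the GC and length trend brings every library, those of p53n too, to the mean trend of the 9 libraries. Bias between genes that all libraries share stays, so shares and ranks of genes still depend on it. With the trend of every library removed, the INK4 sum was 63.8 ± 1.68, 144 ± 3.29 and 104 ± 10.8 RPKM, so its order in the 2 PDGF-BB groups turned. The Cip/Kip share was then 53.8% ± 0.40, 19.7% ± 0.63 and 26.4% ± 1.66, lower in both PDGF-BB groups than in p53n but no longer lowest with tazemetostat. With exon bases shared with other genes left out of the length, it was 62.8%, 23.8% and 19.4%. Both ways of computing the levels were added after the data were seen, and these sums and shares are descriptions and carry no test.

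**Figure D1:**
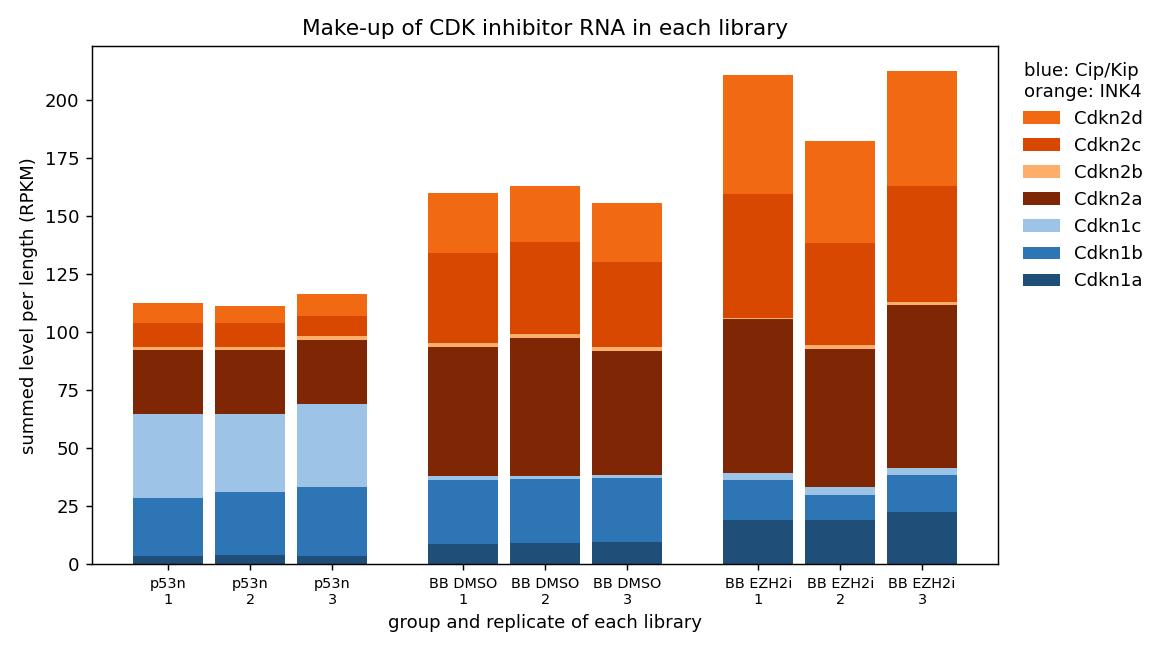
Summed level per length (RPKM, deposited exon length, GC and length trend not removed) of the CDK inhibitor genes in each of the 9 libraries, stacked by gene, with Cip/Kip genes in blue and INK4 genes in orange. Cip/Kip genes make up 58.4% of the stack on average in p53n and 24.0% in BB-p53n DMSO, where the Cdkn1c segment is nearly gone, and the Cdkn2c and Cdkn2d segments are taller in both PDGF-BB groups.

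The order of the genes by level per length differed between groups as well. In p53n, Cdkn1c stood highest at 35.1 ± 1.56 RPKM (33.4 to 36.4). Cdkn2a at 27.6 ± 0.18 and Cdkn1b at 27.4 ± 2.41 followed and overlapped, as did Cdkn2c at 9.83 ± 0.88 and Cdkn2d at 8.29 ± 1.17. Cdkn1a at 3.64 ± 0.27 and Cdkn2b at 1.46 ± 0.15 stood lowest. Both overlaps in p53n depend on how the level is computed. With the GC and length trend removed, Cdkn2a (36.8 to 39.1 RPKM) lay above Cdkn1b (21.3 to 24.2). When exon bases shared with other genes were left out of the length, Cdkn2c (10.1 to 11.9) lay above Cdkn2d (7.09 to 9.43). Cdkn1c was then at 50.6 ± 2.26 RPKM, still the highest in p53n. In BB-p53n DMSO the order was Cdkn2a (56.1 ± 3.00), Cdkn2c (38.4 ± 1.47), Cdkn1b (27.6 ± 0.081), Cdkn2d (24.9 ± 0.88) and Cdkn1a (9.21 ± 0.41), with no overlap between neighbours in that order. Cdkn2b (1.65 ± 0.075) and Cdkn1c (1.36 ± 0.13) stood lowest, and their order depends on the length used. Over exon bases that no other gene shares, Cdkn1c was at 1.97 ± 0.18 RPKM (1.76 to 2.11), above Cdkn2b. The gene that had led in p53n was thus one of the lowest pair. With the GC and length trend removed, Cdkn1b (23.2 ± 0.67) stood below Cdkn2d (29.2 ± 1.93). In BB-p53n EZH2i Cdkn2a stood at 65.2 ± 5.23 RPKM, and Cdkn2c (49.0 ± 4.59) and Cdkn2d (48.4 ± 3.73) came next with overlapping libraries. They were followed by Cdkn1a (20.2 ± 1.99), Cdkn1b (14.6 ± 3.25), Cdkn1c (3.13 ± 0.084) and Cdkn2b (1.14 ± 0.36). Under both other ways of computing the level, Cdkn2a kept the highest mean here but its libraries overlapped those of Cdkn2c. The ranges were 59.7 to 70.1 against 50.5 to 60.9 RPKM with shared exon bases left out. With the trend removed they were 35.9 to 42.4 against 28.55 to 36.9 RPKM. Cdkn1a, below Cdkn1b in every library of the other groups, was above it in all 3 libraries here as fitted. With the trend removed it was below, at 14.6 ± 1.17 against 20.6 ± 3.11 RPKM.

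PDGF-BB expression, the study's first question, went with a fall of Cdkn1c and a rise of Cdkn1a, Cdkn2a, Cdkn2c and Cdkn2d. Of the 7 genes 4 rose and 1 fell in BB-p53n DMSO against p53n in edgeR's quasi-likelihood test with Benjamini-Hochberg adjustment over all 17001 genes (adjusted p under 0.05), the test behind every adjusted p given here. In this comparison 69.3% of all genes were called (35.3% up and 34% down), so 5 of 7 called is a share near the background. The median log2 fold change was 1.02 over the 7 genes and -0.02 over all genes. Libraries of the 2 groups did not overlap for those 5 genes, against 76.1% of all genes tested.

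The fall was that of Cdkn1c, the p57 inhibitor. Its level in replicates 1, 2 and 3 was 74.3, 68.0 and 72.3 CPM in p53n and 2.99, 2.49 and 2.87 CPM in BB-p53n DMSO, from 2140, 1634 and 1718 counts against 100, 84 and 93. Every p53n library stood far above every PDGF-BB library. The level fell 25.7-fold (log2 fold change -4.68, SE 0.10, adjusted p = 2.39e-18). Exon bases shared with the opposite strand, 30.7% of its exons, do not enter these counts, as described above.

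Among the Cip/Kip genes Cdkn1a, which encodes p21, went the other way. It was at 12.1, 13.99 and 12.8 CPM in p53n and at 31.1, 33.1 and 34.0 CPM in BB-p53n DMSO, a 2.53-fold rise (log2 fold change 1.34, SE 0.093, adjusted p = 6.66e-11) in cells without p53. Cdkn1b, which encodes p27 and had the highest CPM of the 7 genes in both groups, showed no detectable difference. It was at 114, 124 and 136 CPM in p53n and at 126, 126 and 125 CPM in BB-p53n DMSO. The groups overlapped, and the log2 fold change was 0.01 (95% interval -0.28 to 0.30, adjusted p = 0.955).

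Of the INK4 genes, 3 rose together: Cdkn2c, Cdkn2d and Cdkn2a. Cdkn2c, which encodes p18, was at 27.8, 27.7 and 23.7 CPM in p53n and 104, 107 and 98.8 in BB-p53n DMSO, a 3.90-fold rise (log2 fold change 1.96, SE 0.085, adjusted p = 3.04e-14). Cdkn2d, which encodes p19Ink4d, was at 13.1, 11.2 and 14.9 CPM against 40.5, 37.8 and 39.5, a 3.01-fold rise (1.59, SE 0.098, adjusted p = 9.21e-12). Cdkn2a was at 32.1, 32.3 and 32.5 CPM against 65.3, 69.4 and 62.4, a 2.03-fold rise (1.02, SE 0.078, adjusted p = 2.6e-10). In each of these genes the lowest PDGF-BB library lay above the highest p53n library. Cdkn2b, the neighbour of Cdkn2a, was low in both groups, with 52, 49 and 53 counts in p53n and 73, 79 and 77 in BB-p53n DMSO. At 1.81, 2.04 and 2.23 CPM against 2.18, 2.34 and 2.38 the groups overlapped, and a difference was not detectable at this depth (log2 fold change 0.19, 95% interval -0.31 to 0.68, adjusted p = 0.498). Removing the trends of each library on GC content and exon length left 4 of the 7 genes called up and 1 called down, each in the direction given above, against 31.7% and 40.1% of all genes (71.7% in either direction).

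**Figure D2:**
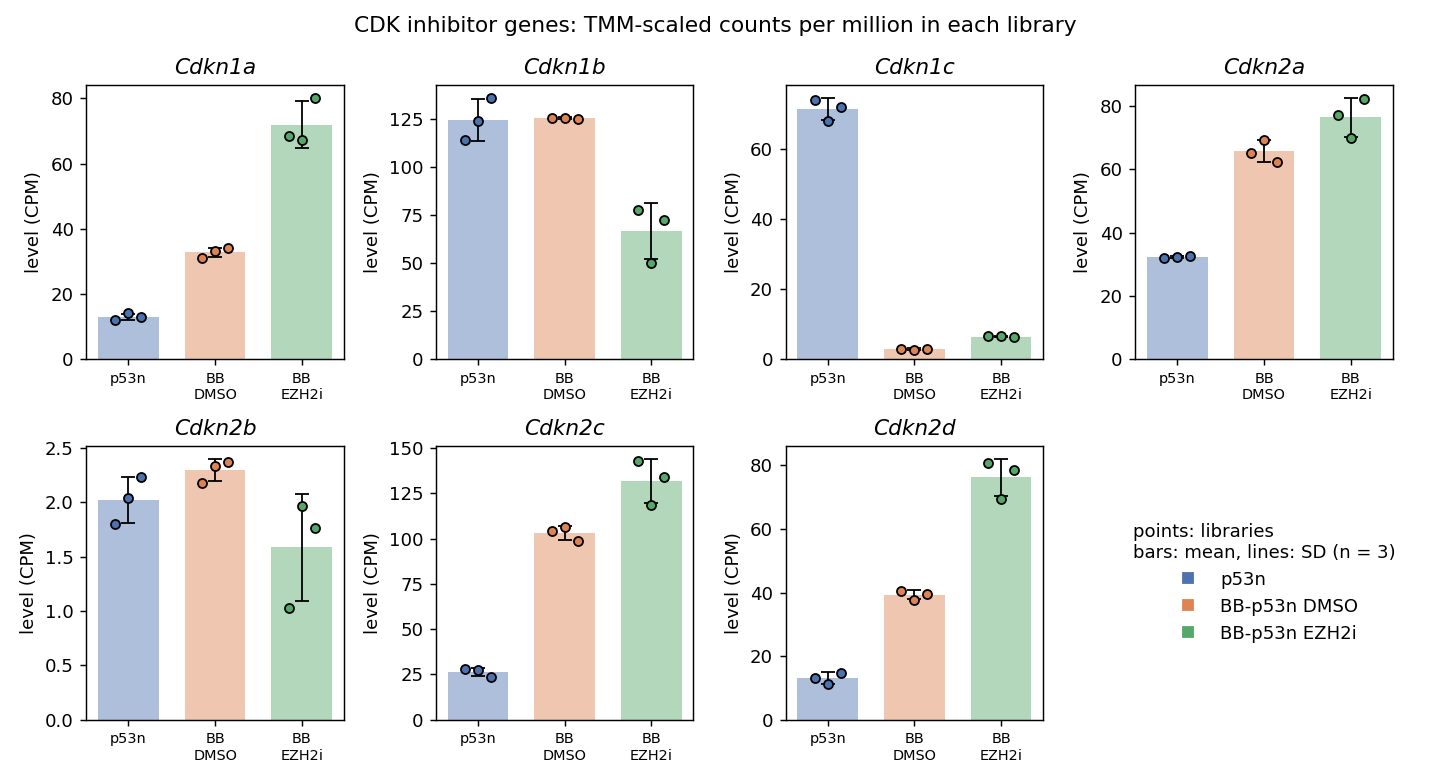
Level of each CDK inhibitor gene in each library (CPM, linear axes that start at 0 and differ between genes), with bars for the mean and lines for the SD of 3 libraries per group. The GC and length trend is not removed here. Cdkn1c drops from 71.5 to 2.78 CPM between p53n and BB-p53n DMSO, Cdkn1a and Cdkn2d climb from group to group, and Cdkn1b is lower in the 3 tazemetostat libraries. With the trend removed, the log2 fold change of BB-p53n EZH2i against BB-p53n DMSO is 0.12 for Cdkn2d and -0.17 for Cdkn1b, neither of them called.

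Inhibition of EZH2 in the PDGF-BB cells, the study's second question, went with higher Cdkn1a and, as fitted, with higher Cdkn1c, Cdkn2d, Cdkn2c and Cdkn2a and lower Cdkn1b. Of these calls that of Cdkn1a kept its direction and threshold when the GC and length trend was removed, those of Cdkn1b, Cdkn1c and Cdkn2d lost the threshold, and those of Cdkn2a and Cdkn2c turned to a fall. As fitted 5 genes rose and 1 fell in BB-p53n EZH2i against BB-p53n DMSO, where 72.9% of all genes were called (37.3% up and 35.6% down). With the trend removed 1 rose and 3 fell, against a background of 57.5% called (28.1% up and 29.3% down). The median log2 fold change of the 7 genes was 0.35 as fitted and -0.17 with the trend removed, against 0.02 and -0.02 over all genes. In this comparison log2 fold changes followed transcript composition, with Spearman's rho of 0.73 with GC content and -0.42 with exon length across 12786 genes, which are not independent replicates, against 0.14 and -0.06 in the first comparison. The GC content of the longest transcript was 43.1% for Cdkn1b and between 54.4% and 60.2% for the other 6 genes. All 7 genes had groups that did not overlap, against 75.3% of all genes tested.

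Cdkn1a was at 68.4, 67.4 and 80.1 CPM with tazemetostat, each library above the 31.1 to 34.0 CPM of the DMSO libraries. It rose 2.20-fold (log2 fold change 1.14, SE 0.086, adjusted p = 3.52e-10), and by 0.51 on the log2 scale with the GC and length trend removed (adjusted p = 4.47e-06). Cdkn1b was at 77.9, 50.0 and 72.3 CPM with tazemetostat, below all DMSO libraries, with the second library lowest. It fell 1.88-fold as fitted (log2 fold change -0.91, SE 0.13, adjusted p = 7.59e-05), but its value was -0.17 with the trend removed (adjusted p = 0.0807). Cdkn1c was at 6.46, 6.50 and 6.18 CPM, from 163, 122 and 130 counts, above the DMSO libraries and far under the p53n libraries. The 2.29-fold rise as fitted (log2 fold change 1.20, SE 0.12, adjusted p = 1.79e-08) became 0.28 with the trend removed (adjusted p = 0.0567).

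The INK4 genes differed from one another. Cdkn2d was at 80.7, 69.5 and 78.4 CPM with tazemetostat, each above the 37.8 to 40.5 CPM of the DMSO libraries. It rose 1.94-fold as fitted (log2 fold change 0.96, SE 0.090, adjusted p = 7.18e-09), and its value was 0.12 with the trend removed (adjusted p = 0.263). Cdkn2c was at 143, 118 and 134 CPM, above the 98.8 to 107 CPM of the DMSO libraries. It rose 1.28-fold as fitted (0.35, SE 0.079, adjusted p = 0.000453) but stood at -0.49 with the trend removed (adjusted p = 9.19e-06), so the sign of its change depends on that step.

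At the Polycomb target locus the as-fitted change was small. Cdkn2a was at 77.2, 70.0 and 82.2 CPM with tazemetostat and at 65.3, 69.4 and 62.4 CPM with DMSO, the lowest treated library just above the highest DMSO library. The 1.16-fold rise (log2 fold change 0.22, SE 0.075, adjusted p = 0.0132) was lost without the third DMSO library (0.18, adjusted p = 0.0874) or without the third tazemetostat library (0.16, adjusted p = 0.0839), and stood at -0.78 with the trend removed (adjusted p = 2.03e-09). Cdkn2b was at 1.03, 1.97 and 1.76 CPM against 2.18, 2.34 and 2.38, from 26, 37 and 37 counts with tazemetostat. Its log2 fold change of -0.56 (SE 0.25) missed the threshold (adjusted p = 0.0534). Without the first tazemetostat library, its lowest, it was -0.31 (adjusted p = 0.3). It passed without the second (-0.73, adjusted p = 0.0211) and with the trend removed (-1.42, adjusted p = 3.81e-05). A rise of Cdkn2b was not seen under any setting, and in the tazemetostat libraries it had the lowest mean RPKM of the 7 genes.

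**Figure D3:**
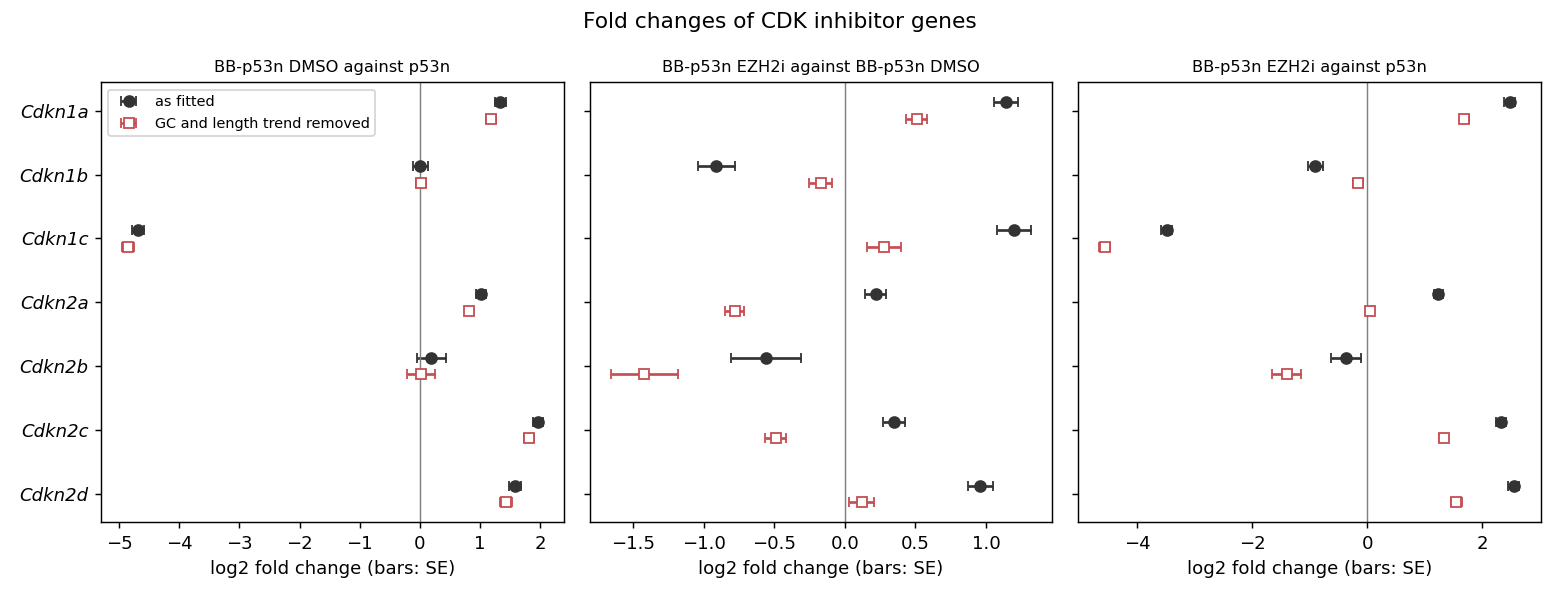
Log2 fold change of each CDK inhibitor gene with its SE (horizontal lines) in the 3 comparisons, as fitted (filled circles) and after removal of the GC and exon length trend of every library (open squares), with an x axis of its own in each panel. The 2 values lie close together for PDGF-BB expression, while for EZH2 inhibition those of Cdkn2a (0.22 and -0.78) and Cdkn2c (0.35 and -0.49) lie on opposite sides of 0.

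The tazemetostat libraries were also set against p53n, a comparison the study does not name and that shares libraries with the others. Of the 7 genes 4 rose and 2 fell, against 82% of all genes called (40.3% up and 41.7% down). Groups did not overlap for 6 of the 7 genes, against 82.2% of all genes. With the GC and length trend removed 3 rose and 2 fell, against 78.3% called (34.8% up and 43.5% down). Cdkn1a (5.56-fold), Cdkn2d (5.85-fold) and Cdkn2c (4.99-fold) stood above p53n as fitted, and 3.23-, 2.93- and 2.51-fold above it with the trend removed. Cdkn1c was 11.2-fold lower as fitted (log2 fold change -3.49, adjusted p = 2.58e-17) and 23.8-fold lower with the trend removed (-4.57), and its tazemetostat libraries, at 6.18 to 6.50 CPM, did not come near the 68.0 to 74.3 CPM of p53n. Cdkn2a was 2.37-fold higher as fitted (log2 fold change 1.24, adjusted p = 6.09e-12), with a value of 0.04 and an adjusted p of 0.627 once the trend was removed. Cdkn1b was lower as fitted (-0.90, adjusted p = 6.69e-05) and at -0.16 with the trend removed (adjusted p = 0.0937). Cdkn2b had a value of -0.37 (adjusted p = 0.196) as fitted and fell by 1.40 with the trend removed. These comparisons share control libraries, so each gene's values are given side by side and their likeness is no result of its own.

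The kinases and cyclins that these inhibitors bind were mostly higher with PDGF-BB. Of 13 such genes 12 rose and none fell (background 35.3% up and 34% down), with a median log2 fold change of 1.27, and the one not called was Ccna1. Ccnd1, the cyclin D1 partner of CDK4 and CDK6, rose from 143 ± 1.75 to 1594 ± 52 CPM (3.47, SE 0.069, adjusted p = 4.03e-19). Cdk4 rose from 419.5 ± 16.7 to 780 ± 36 CPM, Cdk6 from 11.6 ± 1.19 to 41.6 ± 2.95 and Cdk2 from 33.7 ± 1.06 to 65.5 ± 0.52. The kinases that INK4 proteins bind and 3 of the 4 INK4 genes were thus higher in the same libraries. With tazemetostat 7 of the 13 rose and 4 fell, and with the trend removed 8 rose and 1 fell (background 37.3% up and 35.6% down as fitted, 28.1% and 29.3% with the trend removed). Ccne1 (cyclin E1) rose from 26.7 ± 0.85 to 58.3 ± 3.34 CPM (1.13, adjusted p = 3.97e-10; 0.57 with the trend removed). Ccne2 fell from 35.1 ± 3.72 to 11.9 ± 3.24 CPM as fitted (-1.54, adjusted p = 4.75e-06) and was at -0.17 with the trend removed. Cdk4 rose to 1316 ± 53.3 CPM (0.76 as fitted, 0.19 with the trend removed), and Cdk2 rose by 0.57 as fitted and 0.70 with the trend removed. Cdk6 fell by 0.47 as fitted and rose by 0.58 with the trend removed. Ccnd1, at 1649 ± 31.7 CPM, had a value of 0.05 (adjusted p = 0.491) as fitted and of -0.19 with the trend removed (adjusted p = 0.0043).

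Of the 10 retinoblastoma and E2F genes, through which these kinases act, 6 rose and 3 fell with PDGF-BB (median 0.82). In all, 35.3% of genes rose and 34% fell in that comparison. E2f1 rose from 3.64 ± 0.20 to 34.7 ± 0.87 CPM (3.25, SE 0.10, adjusted p = 1.8e-16), and Rb1 fell from 50.8 ± 1.23 to 30.2 ± 1.61 CPM (-0.75, adjusted p = 5.06e-07). With tazemetostat 3 rose and 6 fell, or 2 and 5 with the trend removed (background 37.3% up and 35.6% down as fitted, 28.1% and 29.3% with the trend removed). Rb1 fell further to 8.26 ± 1.42 CPM (-1.86, adjusted p = 7.93e-12; -0.79 with the trend removed), and E2f1 rose to 71.9 ± 4.97 CPM (1.05, adjusted p = 3.19e-10; 0.22 with the trend removed).

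Cip/Kip proteins are also removed by ubiquitin ligases. Of 14 genes of that turnover 6 rose and 1 fell with PDGF-BB (median 0.12), fewer calls than the 69.3% of all genes and a share of rises near the 35.3% background. Dtl, which targets p21 through the CUL4 ligase in S phase, rose from 20.6 ± 2.14 to 135 ± 2.05 CPM (2.71, adjusted p = 1.69e-16). Skp2 and Cks1b, the receptor and cofactor that mark p27 for degradation, rose from 39.0 ± 3.02 to 68.4 ± 1.75 CPM (0.81) and from 22.3 ± 2.22 to 77.8 ± 1.74 CPM (1.80). Fbxl12 fell (-0.40, adjusted p = 0.021). Cdkn1b RNA showed no detectable change in that comparison, and protein was not measured. With tazemetostat 5 rose and 7 fell as fitted, or 6 and 4 with the trend removed (background 37.3% up and 35.6% down as fitted, 28.1% and 29.3% with the trend removed). Cks1b rose to 138 ± 1.87 CPM (0.83, adjusted p = 2.56e-09; 0.52 with the trend removed) and Uhmk1, a kinase of p27, fell (-1.47, adjusted p = 2.05e-13; -0.61 with the trend removed). Skp2 fell as fitted (-0.60, adjusted p = 1.4e-05) and was at 0.16 with the trend removed, and Dtl changed sign, from -1.17 to 0.34.

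**Figure D4:**
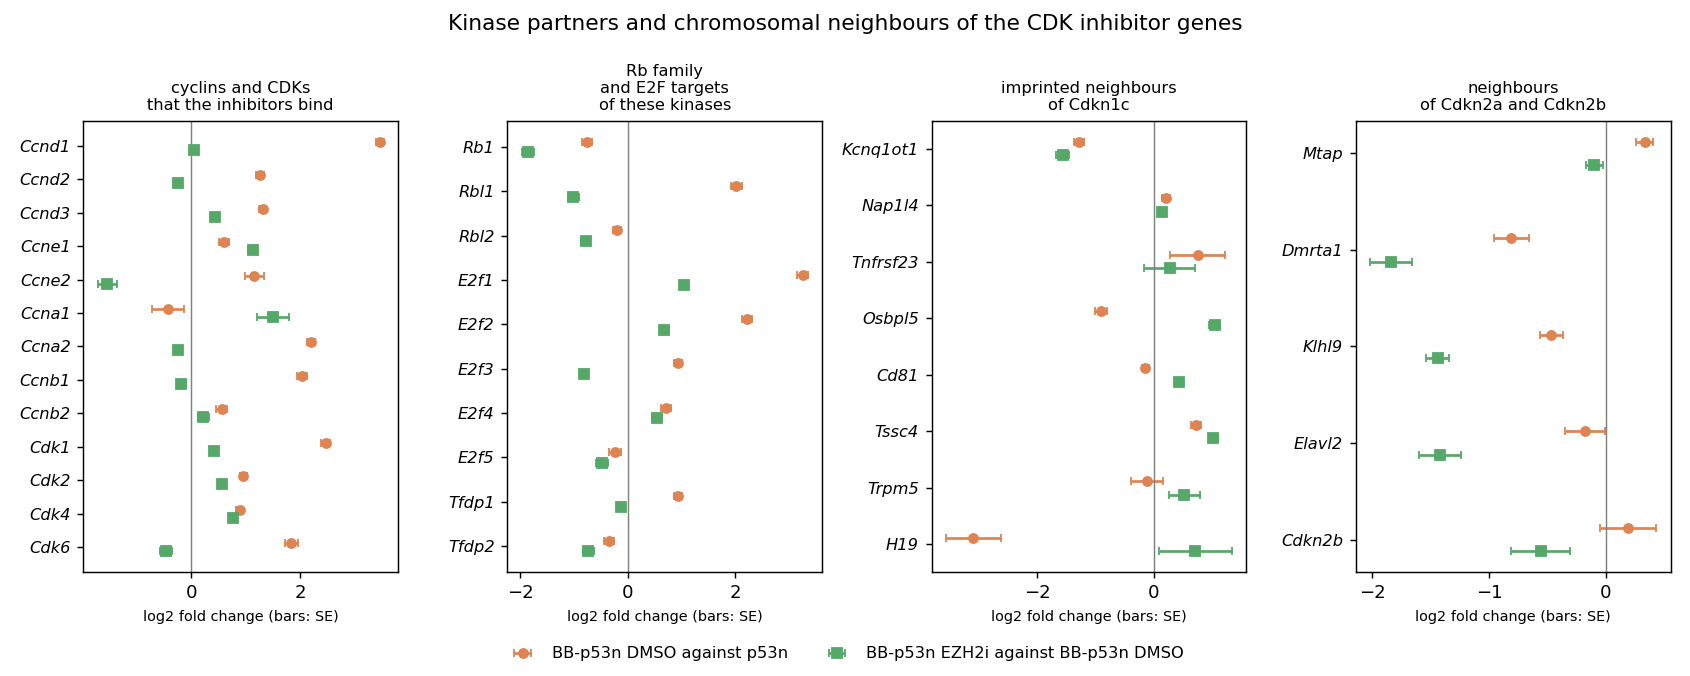
Log2 fold change with SE, as fitted, of the cyclins and CDKs, the retinoblastoma and E2F genes, and the tested neighbours of Cdkn1c and of Cdkn2a and Cdkn2b, for PDGF-BB expression (circles) and EZH2 inhibition (squares), with an x axis of its own in each panel. Of the 13 cyclins and CDKs 12 lie above 0 for PDGF-BB, and Kcnq1ot1 lies below 0 in both comparisons as fitted, its square turning to 1.33 once the GC and length trend is removed.

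Known regulators of the Cdkn2a and Cdkn2b locus numbered 22, all tested, and 12 rose and 4 fell with PDGF-BB (median 0.31). Calls among them were near the background of 69.3% (35.3% up and 34% down). Bmi1, a subunit of the Polycomb repressive complex PRC1, rose from 65.9 ± 2.37 to 114 ± 7.72 CPM (0.79, adjusted p = 0.0173), while Cbx7, another PRC1 subunit, fell from 20.9 ± 1.26 to 11.7 ± 0.50 CPM (-0.83, adjusted p = 7.06e-07). Jun rose from 53.3 ± 3.48 to 145 ± 7.86 CPM (1.45, adjusted p = 1.05e-12). Id1, which holds back activation of Cdkn2a by ETS factors, fell from 16.9 ± 1.24 to 0.64 ± 0.20 CPM (-4.71, adjusted p = 1.17e-14). Kdm6b, the demethylase that opposes EZH2, was at 86.8 ± 7.88 and 84.4 ± 1.46 CPM (-0.04, adjusted p = 0.649). With tazemetostat 7 rose and 8 fell as fitted, and 2 rose and 12 fell with the trend removed (background 37.3% up and 35.6% down as fitted, 28.1% and 29.3% with the trend removed). Smarcb1, a core subunit of the SWI/SNF remodeller, rose from 110 ± 5.22 to 232 ± 30.3 CPM (1.08, adjusted p = 3.44e-10; 1.27 with the trend removed), and Dmtf1, an activator of p19Arf, fell from 66.0 ± 5.68 to 20.2 ± 2.59 CPM (-1.71, adjusted p = 3.6e-12; -0.36 with the trend removed). Bmi1 fell as fitted (-1.09, adjusted p = 0.00369) and was at -0.08 with the trend removed. Cbx7 had a value of -0.10 (adjusted p = 0.415) and fell by 0.61 with the trend removed, and Kdm6b had a value of -0.17 (adjusted p = 0.0513) and fell by 0.72 with the trend removed.

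Transcription factors known for the Cip/Kip and the other INK4 genes numbered 19, of which 17 were tested. With PDGF-BB 10 rose and 3 fell (median 0.56), against 69.3% of all genes called, 35.3% up and 34% down. The smallest adjusted p among rises was that of Foxm1, a proliferation factor, from 47.8 ± 4.6 to 276 ± 9.97 CPM (2.53, adjusted p = 1.08e-16), and among falls that of Foxo3, an activator of Cdkn1b, which fell from 84.8 ± 5.40 to 50.5 ± 1.71 CPM (-0.75, adjusted p = 1.94e-08). With tazemetostat 7 rose and 7 fell as fitted, and 4 rose and 6 fell with the trend removed (background 37.3% up and 35.6% down as fitted, 28.1% and 29.3% with the trend removed). Men1, a cofactor of Cdkn1b and Cdkn2c transcription, rose from 104 ± 4.17 to 188 ± 16.6 CPM (0.86, adjusted p = 1.26e-09) and was at 0.12 with the trend removed (adjusted p = 0.0732). Sp1, which binds GC boxes, fell from 228 ± 5.35 to 113 ± 2.46 CPM (-1.01, adjusted p = 1.65e-11) and was at -0.05 with the trend removed. The GC box letters GGGCGG were found, on either strand, in windows of Cdkn1a, Cdkn1b, Cdkn2a, Cdkn2c and Cdkn2d, and in 32.7% of all windows.

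Of 16 imprinted neighbours of Cdkn1c 8 were tested. With PDGF-BB 2 rose and 3 fell as fitted (median -0.13; background 35.3% up and 34% down), and 1 rose and 4 fell with the GC and length trend removed (median -0.30; background 31.7% and 40.1%). Kcnq1ot1, the long noncoding RNA whose paternal transcription silences Cdkn1c in cis, fell from 63.0 ± 3.42 to 26.0 ± 2.69 CPM (-1.28, adjusted p = 1.24e-10), in the same direction as Cdkn1c. Osbpl5 fell from 26.4 ± 1.51 to 14.1 ± 1.60 CPM (-0.90) and Tssc4 rose from 23.3 ± 1.25 to 38.7 ± 2.44 CPM (0.73, adjusted p = 1.42e-07). The median log2 fold change of the 97 tested genes within 5 Mb of Cdkn1c was -0.20. With tazemetostat 4 neighbours rose and 1 fell as fitted, or 3 and 0 with the trend removed (background 37.3% up and 35.6% down as fitted, 28.1% and 29.3% with the trend removed). Tssc4 rose to 79.1 ± 5.85 CPM (1.03, adjusted p = 5.29e-10) and was at 0.10 with the trend removed. Kcnq1ot1 fell to 8.74 ± 0.90 CPM as fitted (-1.56, adjusted p = 6.63e-11) and rose with the trend removed (1.33, adjusted p = 9.81e-11), so its direction depends on that step.

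Around Cdkn2a and Cdkn2b, 5 neighbouring genes were read, Cdkn2b among them. With PDGF-BB 1 rose and 2 fell (background 35.3% up and 34% down). Mtap, the enzyme gene next to Cdkn2a that is often lost with it in tumours, rose from 176 ± 3.36 to 221 ± 3.45 CPM (0.33, adjusted p = 0.000535), so it and Cdkn2a were both higher in the PDGF-BB line, and RNA from the locus was present in every library. Dmrta1 fell from 13.2 ± 1.68 to 7.53 ± 0.85 CPM (-0.81, adjusted p = 5.32e-05). With tazemetostat none rose and 3 fell as fitted, while 1 rose and 3 fell with the trend removed (background 37.3% up and 35.6% down as fitted, 28.1% and 29.3% with the trend removed). Klhl9 fell from 114 ± 0.80 to 42.0 ± 8.09 CPM (-1.44, adjusted p = 1.49e-09; -0.63 with the trend removed). Mtap was at 206 ± 24.7 CPM, with a value of -0.10 (adjusted p = 0.217) as fitted and of 0.18 (adjusted p = 0.0365) with the trend removed. Gm12610, a gene on the opposite strand that spans Cdkn2b without sharing exon bases, was looked at after its values were seen. It rose from 5.97 ± 0.19 to 11.2 ± 0.30 CPM with PDGF-BB (0.90, adjusted p = 1.17e-05), where Cdkn2b did not pass the test. It fell to 5.00 ± 1.16 CPM with tazemetostat as fitted (-1.14, adjusted p = 7.01e-07), and that call was lost with the trend removed (adjusted p = 0.639).

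For each inhibitor the genes of most similar pattern were found among 12878 genes, as the smallest root mean square difference of centred log2 CPM over the 9 libraries. For Cdkn1c these were Draxin (difference 0.15, 116 ± 12.8, 4.95 ± 0.45 and 10.2 ± 0.65 CPM in the 3 groups) and Dpp6 (0.25, 74.2 ± 6.93, 3.71 ± 0.73 and 7.08 ± 0.10 CPM). For Cdkn1a they were Itprip (0.081) and Banf1 (0.095), for Cdkn1b Ube2g1 (0.078) and Gin1 (0.079), and for Cdkn2a Bex2 (0.055) and Entr1 (0.068). Cdkn2c was most like Depdc1b (0.081) and Mcam (0.099), and Cdkn2d most like Nhp2 (0.11) and Rfc3 (0.12). For Cdkn2b, with few counts, they were Gm6159 (0.14) and Slc16a14 (0.17), with Pearson's r of 0.902 and 0.868. The points of each pair share their libraries and the group structure, and the values are descriptions. The GC and length trend was not removed for this search, and its part in the likeness was not tested.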

How the data were processed

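Per the file headers, the authors deposited raw counts of read pairs per gene, summed per gene identifier from its exons by featureCounts 1.6.3. Pairs needed both mates aligned and a mapping quality of 20 or more, strand was not used, and the annotation was Ensembl release 108 (GRCm39). The submitters' processing notes list Trimmomatic and Subread without versions, and alignment settings are not given here. Per the labels' protocols, 500 ng of RNA entered a Kapa mRNA library, read as 150 bp pairs. Symbols covered 91.4% of identifiers. Exon length is the deposited one.

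With edgeR 4.0.16 in R 4.3.3, filterByExpr kept 17001 genes, TMM scaled the libraries and 1 robust quasi-likelihood model with group as its only term was fitted to all 9 libraries (common biological coefficient of variation 0.081). P-values were Benjamini-Hochberg adjusted over all genes, with a threshold of 0.05. The scripts were tested on simulated data. Alternatives were RLE scaling, DESeq2 1.42.0, no filter, each pair of groups alone, the replicate number as a block, offsets that remove the GC and exon length trend of every library (natural splines with 5 degrees of freedom, length alone for the 349 genes without GC content), no X, Y and mitochondrial genes, and each library left out. The trend of a library was taken relative to the mean over the 9 libraries. GC content came from a GRCm38 annotation joined by identifier, with none of its coordinates used. Libraries of a group differed by more than counting noise. CPM floors cover counting error only.

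Named genes were the 7 inhibitors, checks of the labels, the 2 nearest genes in pattern to each inhibitor, the called gene with the smallest adjusted p in each direction of each list, and set partners (Ccnd1, Cdk4, Cdk6, Cdk2, Skp2, Cks1b, Kdm6b, Bmi1, Cbx7, Kcnq1ot1 and Mtap). Osbpl5, Ccna1, Kdm6a and Gm12610 were added after their values were seen. The members and lists were chosen with earlier results of these data known.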

Additional observations from a re-analysis of the deposited data

How the results depend on the processing

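The number of CDK inhibitor genes called was 5 for PDGF-BB under every alternative run, between 4 and 7 for EZH2 inhibition, and 5 or 6 for tazemetostat against p53n. With 1 library left out the counts were 5 to 5, 5 to 7 and 6 to 6. Of 294 values for single genes, 265 kept their direction and side of the threshold, 15 lost the threshold, 8 passed it and 6 changed sign. The sign changes were those of Cdkn1b for PDGF-BB, at -0.02 with RLE scaling and -0.02 with DESeq2, and those of Cdkn2a and Cdkn2c for EZH2 inhibition with the GC and length trend removed, at -0.78 and -0.49 without and -0.78 and -0.50 with the replicate block. The rise of Cdkn2a in that comparison also missed the threshold without the filter (0.11, adjusted p = 0.31), in the fit of those 2 groups alone (0.13, adjusted p = 0.151) and without X, Y and mitochondrial genes (0.13, adjusted p = 0.122), and the fall of Cdkn2b passed it under the same settings (-0.66, -0.64 and -0.64), giving 4 rises and 2 falls. Removing the GC and length trend changed a gene's log2 fold change by a median of -0.15, -0.07 and -0.26 in the 3 comparisons, and the median over all genes went from -0.02 to -0.12, from 0.02 to -0.02 and from -0.04 to -0.15. Libraries of the same replicate number did not all deviate together, with correlations of their deviations from the group means from -0.13 to 0 for PDGF-BB, from -0.01 to 0.35 for EZH2 inhibition and from -0.22 to 0.06 for the third comparison. Not every library correlated best with its own number. For EZH2 inhibition replicates 1 and 2 did (0.35 and 0.28), and replicate 3 did not (-0.01). With the replicate block 5, 6 and 6 of the inhibitor genes and 68.6%, 72.2% and 81.5% of all genes were called, and 5, 4 and 5 inhibitor genes with the block and the trend removed. Without the filter 38.1%, 38.9% and 47.9% of genes were called, against 69.3%, 72.9% and 82% with it, more low genes being tested. Depth limits Cdkn2b, with 26 to 79 counts per library.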
